A study of Mus musculus with 9 samples.

Results

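The genes described here encode the mitochondrial respiratory chain and ATP synthase, and they come from 2 genomes. Gene names starting with mt- marked the transcripts of the mitochondrial chromosome, and names starting with Ndufa, Ndufb, Ndufc, Ndufs, Ndufv, Sdh, Uqcr, Cox4 to Cox8 or Atp5 marked those of the nucleus, without names ending in -ps and a digit. Of 132 matching names, 105 had a mean of at least 1 FPKM over the 9 libraries (fragment counts scaled to gene length and library depth), and these are the members: 16 mitochondrially encoded and 89 nuclear-encoded genes among the 11674 genes tested at that level. Poly(A)-selected RNA was sequenced from mouse embryonic stem cells kept in N2B27 medium with the MEK inhibitor PD0325901 (0.4 µM), the GSK3 inhibitor CHIR99021 (3 µM) and Lif (4 ng/ml) on fibronectin, with 3 libraries in each of 3 groups. The control was labelled Yap f/f Taz f/f, with both genes floxed. The Taz KO was labelled Yap f/f Taz ∆/∆ and the double KO Yap ∆/∆ Taz ∆/∆. The genotype field of the double KO libraries reads as that of the Taz KO, so the groups follow the titles and descriptions. Per the labels the cells carried a Cre-ERT2 transgene under the CAG promoter, inserted with piggyBac, and the floxed alleles were recombined by 4-OHT at 500 nM. The 4-OHT dose is listed alike for all 9 libraries, the control included, but whether the control cells received it is not said. Whether a group is 1 clone and whether its libraries are separate cultures is not stated, so a p-value here covers the spread among the libraries and no more.

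Complexes I to IV pass electrons from NADH and succinate to oxygen, and complexes I, III and IV pump protons across the inner mitochondrial membrane. Complex V, the ATP synthase, lets the protons back to make ATP. The mitochondrial chromosome carries the hydrophobic core subunits of complexes I, III, IV and V, the ribosomal RNAs and a set of tRNAs, and it is transcribed as long precursors that are cut at the tRNAs. All other subunits, the whole of complex II and the assembly factors are nuclear genes whose proteins are imported. Pluripotent stem cells in culture are known to rely strongly on glycolysis, while naive cells also respire.

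Neighbouring mitochondrial genes are packed so closely that some share bases, which matters for reading their counts. The following windows of the GENCODE vM21 transcripts (GRCm38, plus strand of chrM) show the shared bases in capitals, with 8 bases on each side.
mt-Atp8 and mt-Atp6, chrM:7919-7977: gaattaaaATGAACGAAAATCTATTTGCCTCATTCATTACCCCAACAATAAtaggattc
mt-Nd4l and mt-Nd4, chrM:10159-10181: ctactacaATGCTAAaaattatt
mt-Nd5 and mt-Nd6, chrM:13544-13573: atactcaaTTAATCTCGAGTAAtctcgata
The first pair shares 43 bases and the second pair 7 bases on the same strand, while the 14 bases shared by mt-Nd5 and mt-Nd6 are read from opposite strands. The library kit keeps strand, but the strand setting of the counting is not given in the sources used here, so reads of mt-Nd5 and mt-Nd6 in that overlap may be mixed. Other gene models hold copies of mitochondrial sequence. Of all 75-base stretches, the read length, 99.9% in mt-Co3, 99.5% in mt-Co2, 99.5% in mt-Atp6, 97.8% in mt-Nd3, 61.5% in mt-Nd4 and 39.8% in mt-Co1 also occurred in a transcript of another gene. The share was 5.71% in mt-Nd2 and 1.66% in mt-Nd5, and it was 0 in mt-Cytb, mt-Nd1, mt-Nd6, mt-Atp8 and both ribosomal RNAs. In mt-Nd4l, a complex I subunit gene, 98.7% of the stretches occurred in the gene model Gm10222, and mt-Nd4l itself was listed at a mean of only 0.032 FPKM.

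For the nuclear members, promoters of 76 of the 89 were matched in RefSeq (GRCm38.p6, from 250 bases before to 50 after the start), and 4 motifs of factors known to act on mitochondrial genes were searched on both strands. The NRF1 motif (the bases in capitals in the windows of this paragraph, with any base allowed at the sixth) stood in the promoters of 19 of the 76 genes (25%), against 12.4% of the genes tested and 5.19% of all genes in the table. The YY1 motif AAGATGGC stood in 11 (14.5%), against 5.82% and 3.19%. The ETS core CCGGAAG stood in 19 (25%), against 21.8% and 9.93%, and the ERR motif TCAAGGTCA in 2 (2.63%), against 0.339% and 0.466%. No overlap between these motifs was removed. The following windows show the NRF1 motif in capitals with 25 bases on each side, all upstream of the start, for 1 gene of each complex that offered one and for Ndufa5 of chromosome 6, a chromosome with its own pattern in these data. Each is written 5′ to 3′ on the strand of the gene, and Cox6a1 and Ndufa5 were chosen after their values were seen.
Ndufb4, complex I, chr16:37654413-37654472, minus strand: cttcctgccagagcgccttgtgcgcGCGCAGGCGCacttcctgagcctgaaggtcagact
Sdhd, complex II, chr9:50603894-50603953, minus strand: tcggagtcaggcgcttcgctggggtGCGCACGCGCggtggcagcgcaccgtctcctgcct
Cox6a1, complex IV, chr5:115349086-115349145, minus strand: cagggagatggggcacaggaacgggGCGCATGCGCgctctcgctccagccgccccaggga
Atp5g2, complex V, chr15:102671055-102671114, minus strand: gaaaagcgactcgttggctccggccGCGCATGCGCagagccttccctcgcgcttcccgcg
Ndufa5, complex I, chr6:24527682-24527741, minus strand: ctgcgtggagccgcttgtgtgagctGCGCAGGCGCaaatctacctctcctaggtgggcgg
Genes with and without the NRF1 motif both had lower medians in the double KO than in the control. Their median differences on the log2 scale were -0.59 over the 19 genes with it and -0.49 over the 57 without it, and 14 and 35 of them fell, beside 12.9% of all genes tested. The other motifs did not all run this way: the medians with and without the motif were -0.57 and -0.49 for ETS, -0.48 and -0.52 for YY1, and -0.49 and -0.51 for ERR, for which neither gene with the motif fell. None of these splits was tested.

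The libraries held 19052465 to 23877549 reads assigned to genes, as recovered from the FPKM values, and the least covered member, mt-Tp, had at least 43 reads in each library. The stem cell markers were high in all groups, with summed FPKM of 1567 to 1633 in the control, 1541 to 1599 in the Taz KO and 1328 to 1411 in the double KO. Single markers moved in the double KO: Fgf4 (-0.79), Klf4 (-0.72), Sox2 (-0.33) and Nanog (-0.31) fell and Zfp42 (0.70) rose against the control. The rest of that list, Pou5f1 (-0.20), Esrrb (0.06) and Tfcp2l1 (-0.07), did not pass. Pou5f1 did with the library number as a block (limma adjusted p = 0.33, 0.0239 with the block). The fibroblast list summed to at most 9.95 FPKM in any library, with 3 to 4 of its 8 genes at 0 in a group, and Thy1, most of that sum, was at 2.72 FPKM in the control and 5.87 in the double KO (limma adjusted p = 0.202, 0.0027 with the block). The part of these markers in the results was not tested. Yap1 fell from 18.4 ± 0.573 FPKM in the control and 18.3 ± 0.346 in the Taz KO to 4.25 ± 0.334 in the double KO (SD, n = 3), while Wwtr1, the gene of Taz, was at 12.1, 10.8 and 13.9 FPKM on average, so whole-gene values do not check the Taz deletion. Libraries numbered 2 stood apart from those numbered 1 and 3: 77, 84 and 79 of the 89 nuclear members were lower in number 2 than in the others of the control, the Taz KO and the double KO, with medians of -0.17, -0.33 and -0.35 on the log2 scale, against -0.03, -0.05 and -0.07 over all genes tested. Of all genes tested 55.3%, 55.7% and 59.1% were lower in number 2. Of the 16 mitochondrial members 2, 9 and 11 were lower, with medians of 0.21, -0.03 and -0.14. Results below are therefore also given within library numbers where this changes them.

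The summed level of the nuclear members was lower in every double KO library than in any other library, and that of the mitochondrial members was higher. Summed FPKM of the 89 nuclear members were 8804, 8014 and 8948 in the control libraries, 8628, 6862 and 8550 in the Taz KO libraries and 6609, 5214 and 6342 in the double KO libraries. Summed FPKM of the 16 mitochondrial members were 37518, 44190 and 41082 in the control, 42273, 41590 and 43224 in the Taz KO and 50026, 45981 and 48456 in the double KO. The ratio of the mitochondrial sum to the nuclear sum, which does not depend on how a library is scaled, was 4.26, 5.51 and 4.59 in the control (4.79 ± 0.649), 4.90, 6.06 and 5.06 in the Taz KO (5.34 ± 0.630) and 7.57, 8.82 and 7.64 in the double KO (8.01 ± 0.701, SD, n = 3). The control and Taz KO ratios overlapped, and all 3 double KO ratios lay above all 6 others. The double KO ratio was 1.67 times that of the control, with 1.78, 1.60 and 1.66 for libraries numbered 1, 2 and 3, and 1.5 times that of the Taz KO. In each group the library numbered 2 had the highest ratio. The double KO's nuclear sum was 0.705 times that of the control. Its mitochondrial sum was 1.18 times that of the control, with 1.33, 1.04 and 1.18 for libraries numbered 1, 2 and 3. No p-value is given for a sum over members. Fewer cells of a type and less RNA per cell cannot be told apart in such bulk samples.

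**Figure D1:**
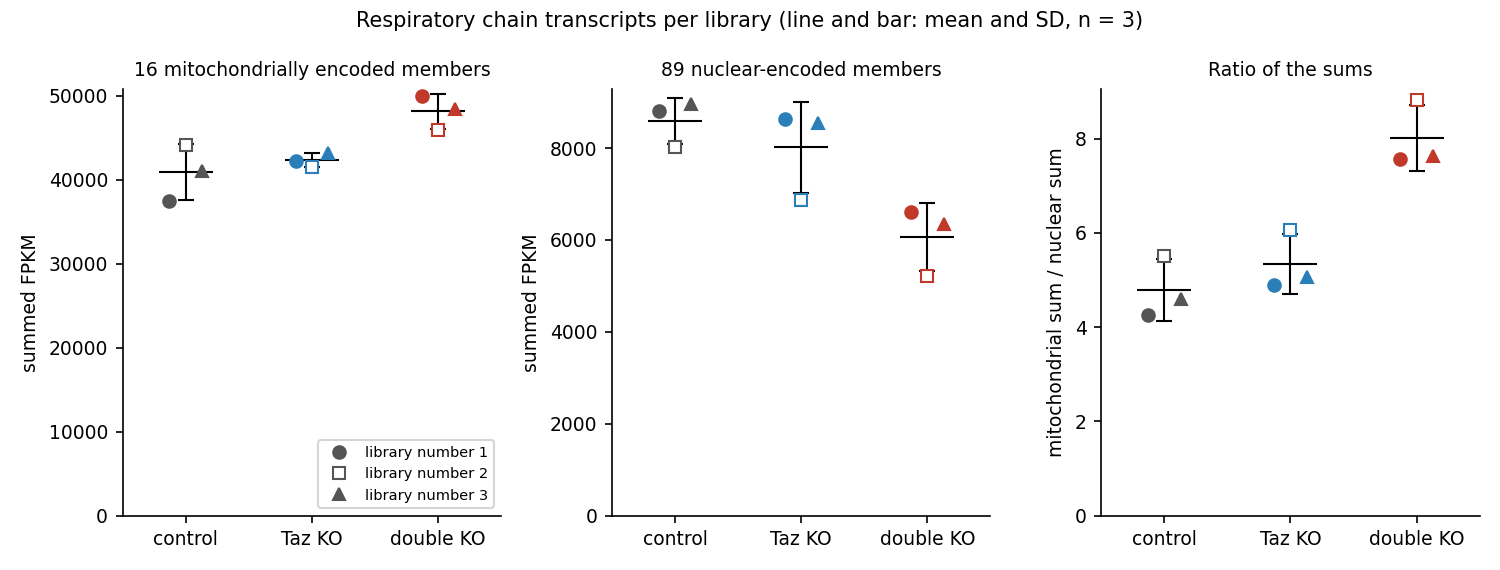
Summed FPKM of the 16 mitochondrially encoded members (left), of the 89 nuclear-encoded members (middle) and their ratio (right), by group, with 1 point per library, symbols for library numbers, and the mean and SD (n = 3). The double KO ratios of 7.57 to 8.82 lie above the control and Taz KO ratios of 4.26 to 6.06.

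The same shift was seen complex by complex. The median mitochondrial subunit of complex I was 23.9, 32.9 and 24.4 times the median nuclear subunit of complex I in the control libraries and 45.0, 47.4 and 45.1 times in the double KO libraries. For complex III the double KO ratio was 1.92 times the control ratio, for complex I 1.69 times, for complex V 1.85 times and for complex IV 1.48 times. Each of these rests on different numbers of genes: mt-Cytb is the only mitochondrial subunit of complex III.

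Between the double KO and the control, 58 of the 89 nuclear members fell and none rose (limma on log2(FPKM + 0.5), adjusted p under 0.05 over all genes tested), while 12.9% of all genes tested fell and 12.4% rose. With the library number as a block 77 fell and none rose, beside 28.1% of all genes that fell and 24.2% that rose (52.4% in either direction). Their median difference was -0.50, against -0.02 over all genes tested, and 87 of the 89 lay below 0. In 69 of them all double KO libraries were below all control libraries, as in 23.8% of the genes tested. Within library numbers 82 of 89 were lower in all 3 pairs. Such counts within library numbers, here and below, were made for members only, so no share over all genes stands beside them. Without the control library numbered 1 the count was 26 and without the one numbered 3 it was 32. Highly expressed genes as a whole also leaned down: of the 1207 genes with a mean above 50 FPKM, 305 fell and 83 rose, with a median of -0.21. The part of this in the members' result was not tested.

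**Figure D2:**
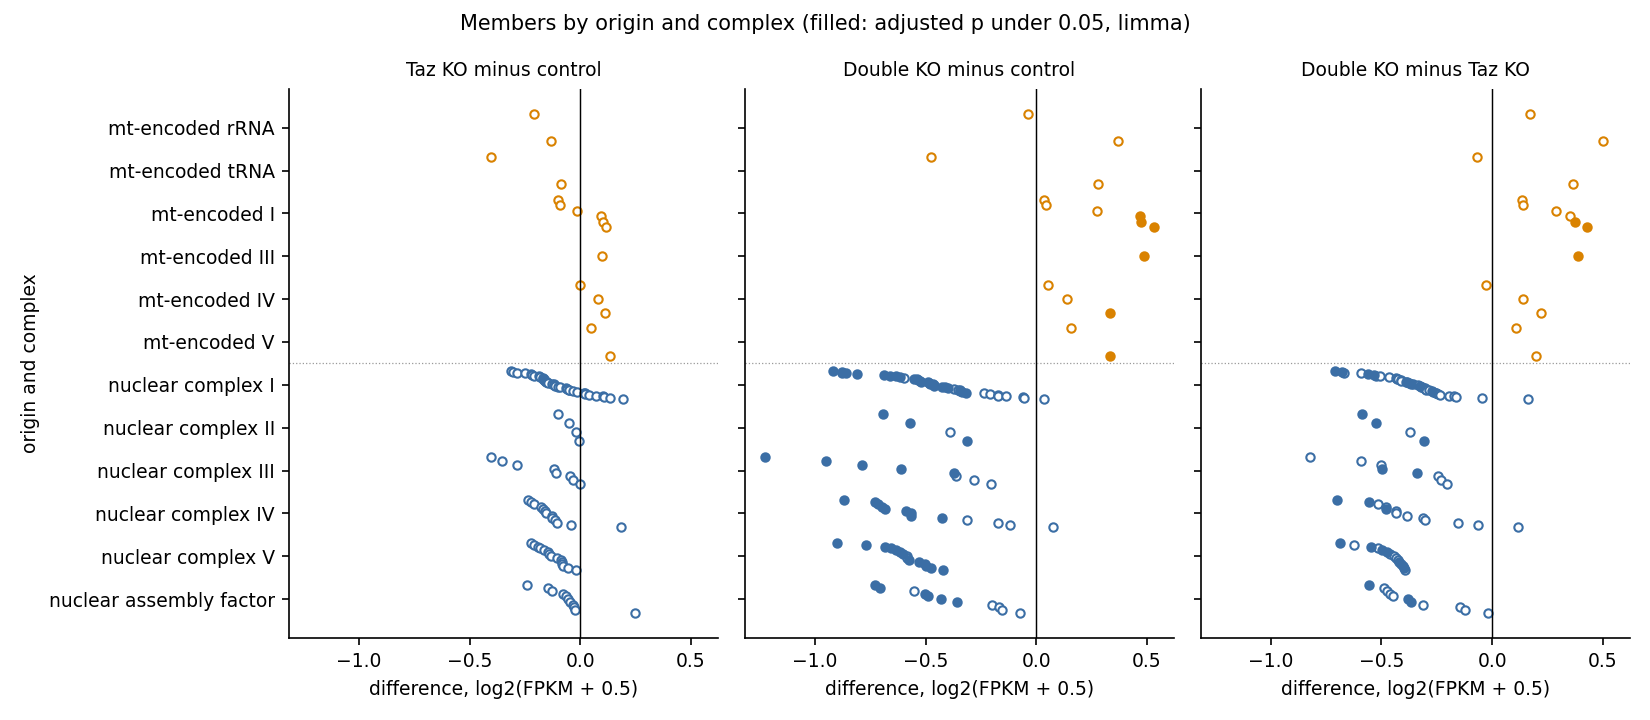
Differences on the log2(FPKM + 0.5) scale of each member, by origin and complex, for the 3 comparisons. Each point is a gene and filled points passed the test. In the double KO minus control panel 58 nuclear members are filled and below 0 and 6 mitochondrial members are filled and above 0.

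Complex I, which oxidises NADH, had 22 of its 38 nuclear members fall, with a median of -0.46. Ndufa7, an accessory subunit (chr17:33824572-33838317, plus strand), was at 91.9, 83.0 and 80.9 FPKM in the control, 83.3, 72.0 and 75.9 in the Taz KO and 50.2, 42.7 and 47.8 in the double KO. All double KO values lay below the others, and the difference from the control was -0.86 ± 0.09 (SE, limma adjusted p = 0.000555). Ndufa6, another accessory subunit (chr15:82350140-82354322, minus strand), was at 118, 115 and 115 FPKM in the control, 109, 102 and 102 in the Taz KO and 81.3, 82.2 and 75.9 in the double KO. It fell by 0.54 on the log2 scale (limma adjusted p = 0.00107), and the 3 groups did not overlap. Ndufa2, also accessory, fell by 0.88. Ndufb4, whose promoter is printed above, went from 40.9, 41.5 and 38.8 FPKM in the control to 29.5, 21.4 and 25.7 in the double KO, a difference of -0.66. The 16 members that did not pass the test included the catalytic core subunit genes Ndufv1 (-0.37), Ndufs3 (-0.33) and Ndufs8 (-0.60), and these 3 passed with the library number as a block (limma adjusted p from 0.000603 for Ndufs8 to 0.0014 for Ndufv1). The core subunit genes Ndufs1 (-0.32), Ndufs7 (-0.35) and Ndufv2 (-0.63) fell. These 6 were named after their values were seen.

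Complex II, succinate dehydrogenase, is wholly nuclear, and 3 of its 4 subunit genes fell. Sdhc, a membrane anchor (chr1:171127165-171150603, minus strand), had the smallest adjusted p of all members: it was at 41.5, 43.5 and 37.8 FPKM in the control, 38.1, 38.0 and 38.1 in the Taz KO and 26.4, 24.7 and 24.3 in the double KO. The double KO libraries lay far below the spread of the others, with a difference from the control of -0.69 ± 0.07 (SE, limma adjusted p = 0.000537). Sdhb and Sdha, the catalytic subunits, differed by -0.57 and -0.31 and fell. Sdhd, the other anchor and the most abundant of the complex, was at 114, 103 and 114 FPKM in the control and 89.1, 73.7 and 90.04 in the double KO, a difference of -0.39 that did not pass (limma adjusted p = 0.0594, 0.00139 with the block).

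Complex III, which passes electrons to cytochrome c, had 5 of its 8 nuclear members fall, and all 8 with the library number as a block. Uqcrc1, a core protein and its most abundant nuclear subunit (chr9:108936633-108949623, plus strand), was at 225, 212 and 225 FPKM in the control, 217, 182 and 217 in the Taz KO and 158, 131 and 147 in the double KO. The double KO values did not overlap the others and the difference from the control was -0.61 (limma adjusted p = 0.00334). Uqcrc2, the other core protein, fell by 0.37. The largest fall of any member was that of the small subunit gene Uqcrq, named after its values were seen: 47.0, 40.4 and 45.2 FPKM in the control, 41.4, 22.2 and 39.8 in the Taz KO and 22.9, 12.7 and 21.8 in the double KO. Its difference from the control was -1.23 ± 0.27 (SE, limma adjusted p = 0.0125, and 0.051 without the control library numbered 1), and the libraries numbered 2 were the lowest of their groups. Uqcrfs1, the Rieske iron-sulfur protein, differed by -0.20 (limma adjusted p = 0.288, 0.0164 with the block).

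In complex IV, cytochrome c oxidase, 9 of 13 fell. Cox8a, its most abundant nuclear member (chr19:7215153-7217616, minus strand), was at 390, 433 and 356 FPKM in the control, 352, 319 and 339 in the Taz KO and 251, 233 and 240 in the double KO. The 3 groups did not overlap, and the double KO differed from the control by -0.70 (limma adjusted p = 0.00114). Cox7a2l, which joins complexes III and IV into supercomplexes, was at 164, 141 and 155 FPKM in the control and 169, 159 and 157 in the double KO. Its difference was 0.07 (limma adjusted p = 0.514), but 0.31 after quantile normalization (adjusted p = 0.0314), the 1 nuclear member that rose under that scaling. Cox4i1, the isoform of subunit IV of most tissues, differed by -0.12 and did not pass.

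In complex V, 13 of 15 nuclear members fell, all 15 with the library number as a block, and all differences between -0.90 and -0.42. Atp5b, the catalytic beta subunit and the most abundant nuclear member of all (chr10:128083273-128090391, plus strand), was at 489, 446 and 500 FPKM in the control, 500, 432 and 487 in the Taz KO and 383, 330 and 362 in the double KO. The double KO values lay below all others, with a difference from the control of -0.42 (limma adjusted p = 0.0122, and 0.053 without the control library numbered 1). Atp5c1, the gamma subunit, was at 166, 161 and 171 FPKM in the control and 116, 98.5 and 113 in the double KO, a difference of -0.60. Atp5g2, a gene of the c ring whose promoter is printed above, went from 172, 177 and 165 FPKM to 119, 117 and 96.4, a difference of -0.63, and 35.8% of its 75-base stretches also occurred in other gene models. Atp5a1, the alpha subunit, differed by -0.50 and fell.

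Of the 11 genes named as assembly factors or related to the complexes by name, 6 fell. Ndufaf6, an assembly factor of complex I (chr4:11051045-11076205, minus strand), was at 15.04, 16.7 and 16.01 FPKM in the control, 15.1, 13.5 and 14.4 in the Taz KO and 8.94, 9.84 and 9.95 in the double KO. Its double KO values lay below all others, with a difference of -0.70 from the control (limma adjusted p = 0.000578). Ndufaf3 and Ndufaf7, also complex I assembly factors, differed by -0.50 and -0.43 and fell. Ndufaf2, the most abundant of them, differed by -0.55 and did not pass (limma adjusted p = 0.0547, 0.000125 with the block).

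**Figure D3:**
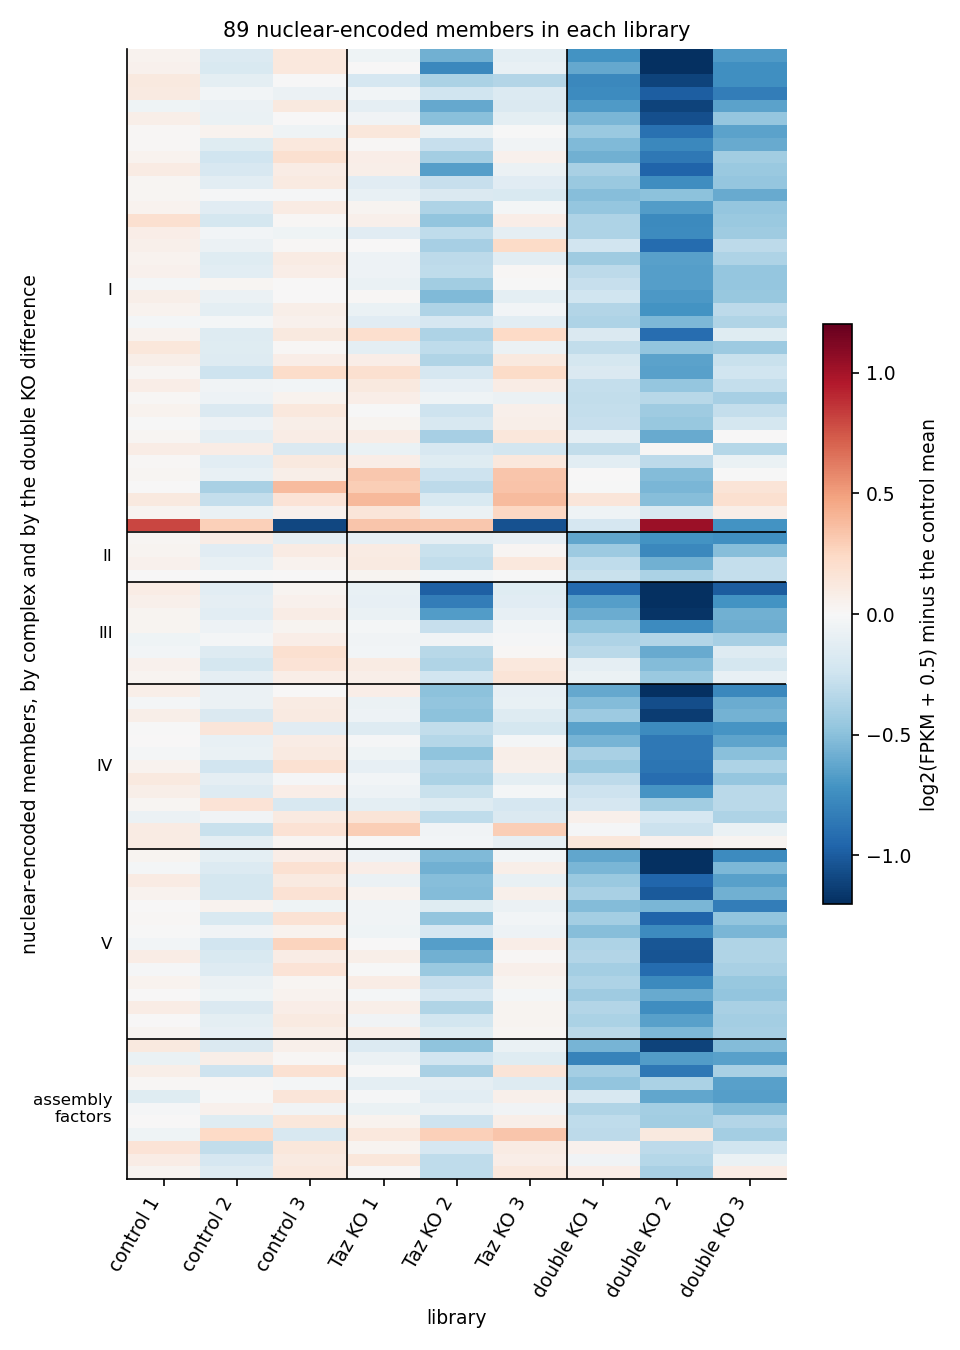
Level of each nuclear-encoded member (rows, by complex and sorted by the double KO difference) in each library (columns), as log2(FPKM + 0.5) minus the control mean, on a colour scale limited at 1.2 in both directions. The double KO columns are blue in most rows, and the column numbered 2 is the bluest in the Taz KO and the double KO; the last row of complex I is Ndufa4l2, which varied most between libraries.

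The mitochondrial members moved the other way. Between the double KO and the control 6 of 16 rose and none fell, while 12.4% of all genes tested rose, and the median was 0.28. The libraries numbered 2 showed little of this: 15, 8 and 14 of 16 were higher within numbers 1, 2 and 3, with medians of 0.42, 0.05 and 0.32, and 8 of 16 were higher in all 3 pairs. In 7 of 16 all double KO libraries were above all control libraries, as in 21.7% of the genes tested. With the library number as a block 7 rose, mt-Rnr2 among them, and mt-Tp fell, beside 24.2% of all genes that rose and 28.1% that fell. These calls were sensitive to the genes tested with them: when all 24621 genes above 0 entered the fit, with the same differences but larger standard errors, none of the 6 passed and their adjusted p ran from 0.0805 for mt-Nd6 to 0.748 for mt-Atp6. The limma-voom fit on recovered reads again called 6. Leaving out 1 library gave counts of 3 to 8, with 3 without the control library numbered 1 or 3 or the double KO library numbered 1 or 3.

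Of the 6 mitochondrial complex I genes measured, 3 rose. mt-Nd6, the 1 subunit gene transcribed from the other strand (chrM:13552-14070), was at 1113, 1175 and 1080 FPKM in the control, 1218, 1227 and 1174 in the Taz KO and 1741, 1544 and 1596 in the double KO. The double KO values lay clear of the rest, with a difference from the control of 0.53 ± 0.08 (SE, limma adjusted p = 0.00184). mt-Nd4 (chrM:10167-11544) was at 1765, 2112 and 1789 FPKM in the control, 1997, 2084 and 1954 in the Taz KO and 2755, 2447 and 2627 in the double KO. It rose by 0.47 (limma adjusted p = 0.00766) without overlap. mt-Nd5 (chrM:11742-13565) was at 1060, 1343 and 1067 FPKM in the control and 1650, 1493 and 1648 in the double KO, a difference of 0.47 (limma adjusted p = 0.0148, up to 0.065 when 1 library was left out). mt-Nd1 and mt-Nd3 differed by 0.05 and 0.04, with overlapping groups, and mt-Nd2 by 0.28, and none of these passed.

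mt-Cytb, cytochrome b of complex III (chrM:14145-15288), was at 2253, 2584 and 2293 FPKM in the control, 2561, 2466 and 2594 in the Taz KO and 3535, 2973 and 3496 in the double KO. Every double KO library was above the rest, and the difference from the control was 0.49 ± 0.09 (SE, limma adjusted p = 0.00713). Of the complex IV catalytic subunits, mt-Co1, the most abundant member of all (chrM:5328-6872), was at 6919, 8855 and 7729 FPKM in the control, 8015, 8592 and 8106 in the Taz KO and 8107, 8406 and 7772 in the double KO. Its groups overlapped and its difference was 0.05. mt-Co2 differed by 0.14 and did not pass. mt-Co3 (chrM:8607-9390) was at 3993, 5125 and 4720 FPKM in the control and 5911, 5823 and 5612 in the double KO, a difference of 0.33 at the edge of the threshold (limma adjusted p = 0.0495), and the call was lost in 8 of the 9 fits that left out 1 library, with adjusted p up to 0.159.

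mt-Atp6, the proton channel subunit of the ATP synthase (chrM:7927-8607), was at 5861, 6729 and 6022 FPKM in the control, 7020, 6302 and 7096 in the Taz KO and 8321, 7218 and 7895 in the double KO. It rose by 0.33 (limma adjusted p = 0.0325, up to 0.12 when 1 library was left out). mt-Atp8, which shares the 43 bases printed above with it, was at 1998, 2267 and 3488 FPKM in the control, 2445, 2141 and 3343 in the Taz KO and 2704, 2265 and 3567 in the double KO. The library numbered 3 was the highest in each group, and the difference of 0.16 ± 0.25 (SE) did not pass. The ribosomal RNAs and tRNAs are captured by poly(A) selection only in part, so their values need not follow their abundance. mt-Rnr1 differed by -0.04, mt-Rnr2 by 0.37 (limma adjusted p = 0.159, 0.00427 with the block), mt-Tc by 0.28 and mt-Tp by -0.47 (limma adjusted p = 0.493, 0.0318 with the block). Just below the level limit, the tRNA gene mt-Tn had a mean of 0.868 FPKM, and the member nearest above it was Atp5s, at 3.37.

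Among the 12 mitochondrial protein genes the double KO difference tended to be larger farther from the start of mt-Rnr1, with mt-Nd3 (0.04) apart from this order. The RNA genes did not follow it, with mt-Rnr2 next to the start at 0.37 and mt-Tp beyond mt-Cytb at -0.47. Neither of these 2 passed without the block. mt-Tp, the least covered member, lies on the other strand, so the distance does not run along its transcript. Among the 12 protein genes the difference correlated with the distance of the gene's start with Pearson's r = 0.75 and Spearman's rho = 0.76, and with r = 0.79, 0.69 and 0.62 within libraries numbered 1, 2 and 3. Without mt-Nd6, which lies on the other strand, r was 0.69 and rho 0.69, with r = 0.76, 0.59 and 0.56 within these library numbers. The farthest 4 genes, mt-Nd4, mt-Nd5, mt-Nd6 and mt-Cytb, differed by 0.47 to 0.53, and the nearest 3, mt-Nd1, mt-Nd2 and mt-Co1, by 0.05, 0.28 and 0.05. For the Taz KO against the control r was 0.55, with 0.12, 0.61 and 0.46 within libraries numbered 1, 2 and 3, over differences from -0.10 to 0.13 of which none passed. The double KO difference correlated with the mean FPKM of the gene with rho = -0.38, and the distance itself correlated with mean FPKM with rho = -0.50. The rho of the double KO difference with gene length was 0.25 and with the share of 75-base stretches found elsewhere -0.24. These are descriptions over 12 genes of 1 chromosome that share libraries, with no test. All but mt-Nd6 also share the strand and its precursor transcripts, and the distance does not run along the transcript of mt-Nd6.

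**Figure D4:**
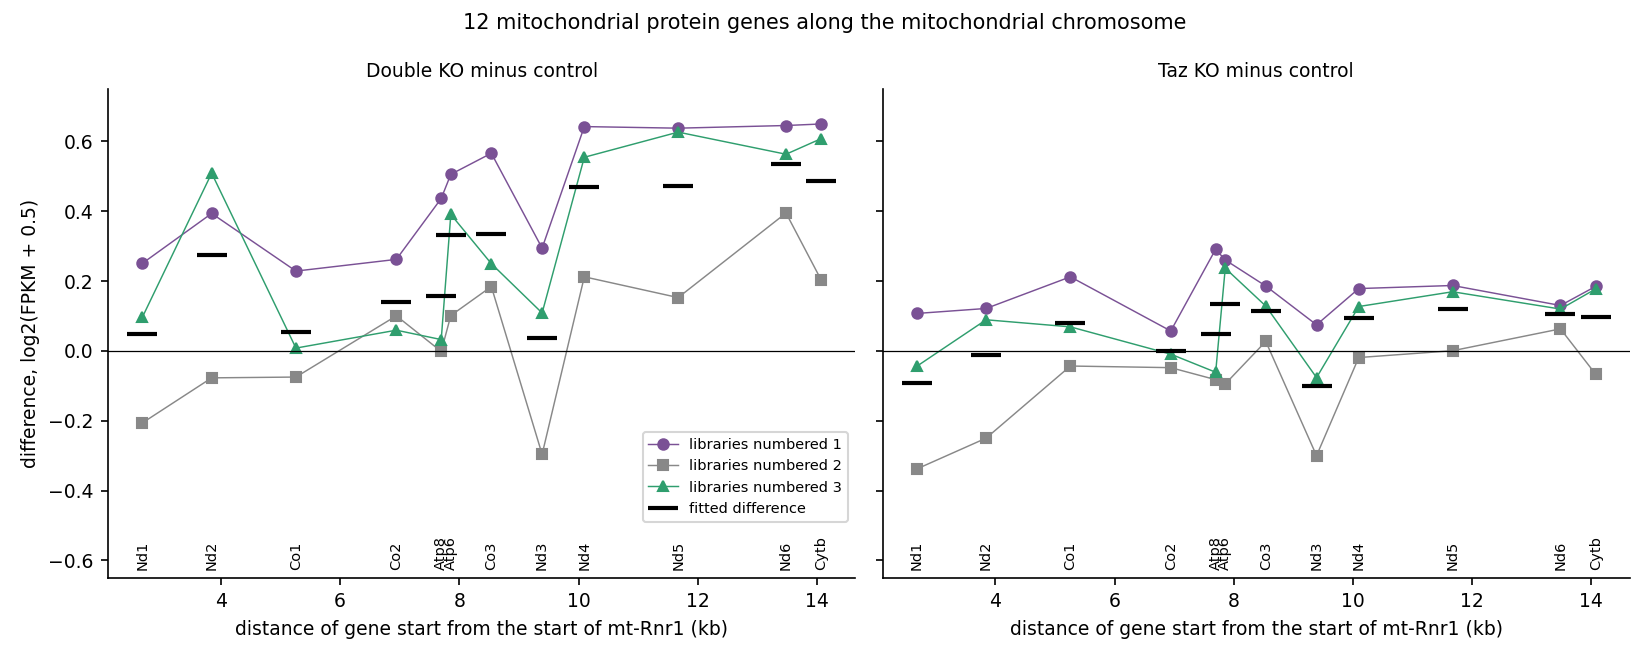
Difference on the log2(FPKM + 0.5) scale of the 12 mitochondrial protein genes against the distance of the gene start from the start of mt-Rnr1 in kb, for the double KO minus control (left) and the Taz KO minus control (right), with a line for each library number and a bar for the fitted difference. On the left the fitted differences of the last 4 genes are 0.47 to 0.53; on the right all fitted differences lie between -0.10 and 0.13.

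Between the Taz KO and the control no member passed the test in limma, while 1.28% of all genes tested did, 0.72% rising and 0.565% falling. At an unadjusted p under 0.05, 0 of 16 mitochondrial and 2 of 89 nuclear members differed, beside 1498 of the 11674 genes tested. The limma-voom fit called 0 and 0 of the members. With the library number as a block Ndufa2 (-0.31, limma adjusted p = 0.0207) and Atp5e, the epsilon subunit of the ATP synthase (-0.22, limma adjusted p = 0.0434), fell, beside 4.05% of all genes that fell and 7.78% that rose. Of the nuclear members 78 of 89 differed by less than 0, with a median of -0.11 against 0.01 over all genes tested. Without the Taz KO library numbered 2 this median was -0.0087, without the control library numbered 3 it was -0.07, and within library numbers 55, 79 and 68 of 89 were lower. In 11 of the 89 all Taz KO libraries were below all control libraries, as in 7.84% of the genes tested. The mitochondrial median was 0.02, and it was -0.01 without the control library numbered 1.

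The direct comparison of the double KO with the Taz KO, both without Taz, showed the same directions. The 2 comparisons with the double KO share its libraries, so their values stand side by side only. Of the nuclear members 27 fell and none rose, beside 7.45% of all genes that fell, and 80 fell with the library number as a block, beside 25.6%. The median was -0.40, with 87 of 89 below 0, and 83 were lower in all 3 library numbers. The count was 7 and 8 without the Taz KO library numbered 1 or 3, 59 without the one numbered 2, 10 without the double KO library numbered 3 and 76 with libraries numbered 1 and 3 only. Sdhc differed by -0.59, Ndufa7 by -0.71, Ndufaf6 by -0.56, Ndufb4 by -0.68 and Atp5g2 by -0.55, with limma adjusted p from 0.00282 for Sdhc to 0.0084 for Atp5g2. Of the mitochondrial members mt-Nd6 (0.43), mt-Cytb (0.39) and mt-Nd4 (0.37) rose, beside 6.42% of all genes, and mt-Nd5 and mt-Rnr2 joined them with the block, beside 16.8%. The count was 1 without the Taz KO library numbered 1 or 3 or the double KO library numbered 1 or 3, and 0 when all genes above 0 were tested. The median was 0.21, and 9 of 16 had all double KO libraries above all Taz KO libraries, as in 14.1% of the genes tested.

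The nuclear members on chromosomes 6 and 8 differed less from the control than those elsewhere. These chromosomes, with 14, were singled out because genes along them stood higher than the rest in both knockout groups: over the 1517 genes tested on them the median difference from the control was 0.22 in the double KO and 0.24 in the Taz KO, and -0.02 between the knockouts. No member lies on chromosome 14. Ndufa4, Ndufa5, Ndufa9 and Ndufb2 lie on chromosome 6 and Ndufa13, Ndufb7 and Cox4i1 on chromosome 8. None of these 7 fell between the double KO and the control (Ndufa4 and Ndufa13 did with the library number as a block), and their median was -0.13, while 58 of the 81 members placed on other chromosomes fell, with a median of -0.53. Of all genes tested, 24 of 495 on chromosome 6 and 20 of 636 on chromosome 8 fell, and 56 and 47 fell with the block. Few falls were thus the rule on these chromosomes and not a trait of the members. In the Taz KO all 7 stood above the control, with differences from 0.02 to 0.20 and none past the test, against a median of -0.13 elsewhere. So did 425 of the 495 genes tested on chromosome 6 and 592 of the 636 on chromosome 8. Between the double KO and the Taz KO the medians were -0.30 for the 7 and -0.41 for the others, and all 7 fell with the library number as a block. Of all genes tested, 114 of 495 on chromosome 6 and 165 of 636 on chromosome 8 fell in that block fit. Ndufa4, the most abundant name of the complex I group and by function now placed in complex IV, was at 316, 277 and 332 FPKM in the control, 353, 238 and 362 in the Taz KO and 272, 163 and 279 in the double KO, with overlapping groups (limma adjusted p = 0.216 against the control, 0.00992 with the block). Ndufa5, whose NRF1 window is printed above, was at 26.1, 19.8 and 34.0 FPKM in the control, 32.1, 20.8 and 33.2 in the Taz KO and 25.8, 17.6 and 29.0 in the double KO. Whether the chromosome set these values was not tested. Without nuclear members on chromosomes 6, 8, 14 and Y the ratio of the sums was 5.29 in the control, 5.99 in the Taz KO and 9.05 in the double KO.

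**Figure D5:**
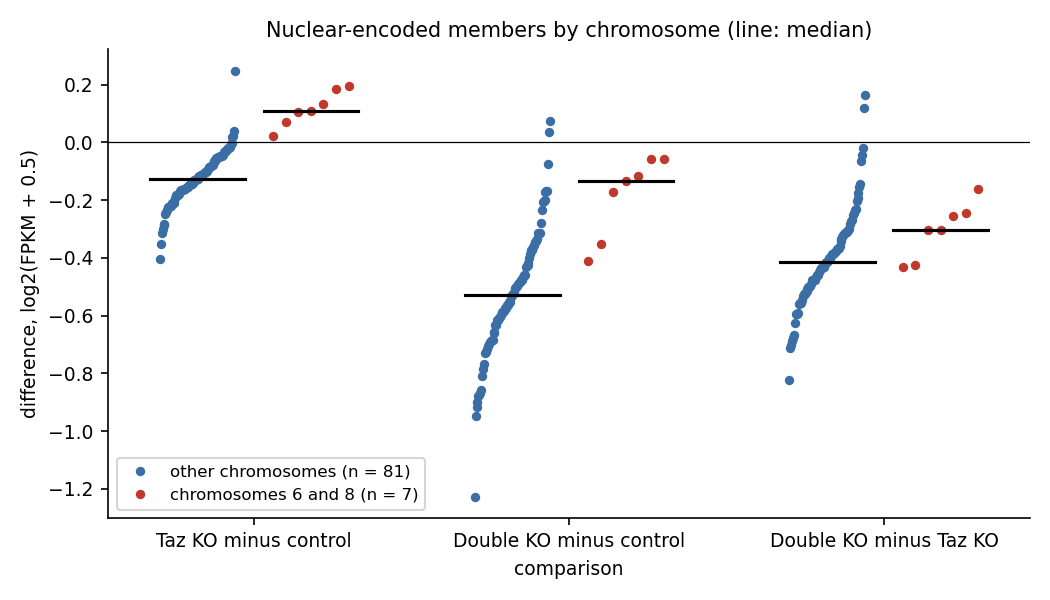
Differences on the log2(FPKM + 0.5) scale of the nuclear-encoded members on chromosomes 6 and 8 (7 genes) and on other chromosomes (81 genes) in the 3 comparisons, with the median as a line. In the Taz KO minus control comparison all 7 lie above 0, as do most genes tested on these 2 chromosomes (425 of 495 and 592 of 636). In the double KO minus control comparison the median of the 7 is -0.13 against -0.53.

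The double KO difference was also set out by exon length. Among the 18 nuclear members with under 1 kb of exons the median was -0.64, against -0.12 over all 714 genes tested of that length. For 34 members of 1 to 2 kb it was -0.49 against -0.15, for 23 of 2 to 4 kb -0.49 against -0.08, and for 12 of over 4 kb -0.45 against 0.03. The members' median lay below that of all genes in each of the 4 ranges, and the part of length in the result was not tested. Of the 46 members with no 75-base stretch in another gene's transcripts 29 fell, and of the 42 with any 29 fell, beside 12.9% of all genes tested. The part of shared sequence in the result was not tested.

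Other nuclear genes of mitochondrial function were described from lists, whose counts stand beside the 12.9% of all genes tested that fell and the 28.1% that fell with the library number as a block. Of 75 mitochondrial ribosomal protein genes, needed to translate the mitochondrial messages, 32 fell and none rose between the double KO and the control, with a median of -0.37 (59 fell and 2 rose with the library number as a block). Mrpl36 differed by -0.87, Mrpl28 by -0.79 and Mrps10 by -0.50. Of 36 assembly factor genes, 9 of which are members, 14 fell and none rose (22 fell with the block), with Nubpl, which delivers iron-sulfur clusters to complex I, at -0.57, and Cox14 and Cox18, which serve complex IV, at -0.50 and -0.53. Of 13 genes of the tricarboxylic acid cycle 5 fell, among them Idh3a (-0.37) and Idh3g (-0.39), and the median was -0.23 (8 fell with the block). Cyc1, the cytochrome c1 subunit of complex III whose name the rule does not match, was at 182, 169 and 178 FPKM in the control and 123, 102 and 124 in the double KO, and it fell by 0.60. Atpif1, the inhibitor of the ATP synthase, and Usmg5, a small ATP synthase subunit, fell by 0.72 and 0.90. With Cyc1 these were the 3 genes that fell in a list of 5. The others were Cox7a2l, given above, and Cycs, the gene of cytochrome c. Cycs differed by -0.25 and did not pass (limma adjusted p = 0.611, 0.137 with the block).

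The list for the upkeep, transcription and RNA stability of the mitochondrial chromosome held 28 genes. Of these 5 fell (17.9%) and none rose, beside 12.9% of all genes tested that fell. With the block 12 fell and 1 rose, beside 28.1% of all genes that fell and 24.2% that rose. The median was -0.14 against -0.02 over all genes tested, with 25 of the 28 below 0. Tfb1m, a methyltransferase of the mitochondrial ribosomal RNA, differed by -0.34, Slirp, which binds mitochondrial messages, by -0.58 and Supv3l1, an RNA helicase, by -0.24, and these fell. Tfam, which packages and helps transcribe the mitochondrial chromosome, was at 23.5, 20.1 and 24.6 FPKM in the control and 20.4, 16.2 and 19.98 in the double KO, a difference of -0.27 that did not pass (limma adjusted p = 0.215, 0.00646 with the block). Lrpprc, which stabilises mitochondrial messages, differed by -0.11 and did not pass. Of 9 regulators of respiratory genes 1 fell, Gabpa (-0.28), an ETS factor (2 fell and 1 rose with the block), a share no higher than that of all genes. Nrf1, whose motif is printed above, was at 6.81, 5.97 and 6.83 FPKM in the control and 7.15, 4.99 and 6.98 in the double KO, with overlapping groups, and Esrra, an estrogen-related receptor, differed by 0.16 and did not pass (limma adjusted p = 0.35, 0.0466 with the block). Tfam, Lrpprc, Nrf1 and Esrra were named after their values were seen.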

How the data were processed

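RNA-seq of 9 libraries was analysed from 1 deposited table of FPKM. Per the submitters' processing notes, TopHat2 2.1.1, HTSeq 0.6.1 and DESeq2 were used with mm10; the sources used here do not give their roles or strand settings. In the deposited FPKM table whole reads could be recovered for 24620 of 24621 genes above 0 (tolerance 0.001 reads), and the scaling differed from median-of-ratios size factors by at most 0.0043%.

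Genes with a mean of at least 1 FPKM (11674) were tested on log2(FPKM + 0.5), a scale that understates changes of low genes, with limma 3.58.1 in R 4.3.3: group means over 9 libraries (6 residual degrees of freedom), trended variance, two-sided, Benjamini-Hochberg adjustment over all genes, called at adjusted p under 0.05. "Rose" and "fell" mean called. The method was tested on simulated data with independent libraries, so that test does not cover deviations shared between libraries. Same-numbered libraries deviated from their group means together (9 correlations from 0.192 to 0.711; different numbers -0.688 to 0.394), so the numbers were taken to pair libraries and the block fit is printed where it changes a call. Members and lists were chosen with earlier results of these data known. Named: all mitochondrial members, the 12 nuclear members of smallest adjusted p per comparison, the most abundant of each complex, members near the level limit and the 3 leading genes of each list; any other gene was chosen after its values were seen. Some genes that this rule names are not reported here. Complexes follow gene names. Positions come from GENCODE vM21 (GRCm38), and 103 of 105 members had one. Of the members below 1 FPKM, 18 mitochondrial names were listed at 0 in all libraries, and 6 were nuclear (Atp5l2, Cox4i2, Cox6a2, Cox7b2, Cox8b and Cox8c). Alternatives were other pseudocounts, filters, scalings, variance models, limma-voom on reads, the block, left-out libraries, and, chosen after seeing the data, libraries numbered 1 and 3 only. Figures were drawn with matplotlib.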

Additional observations from a re-analysis of the deposited data

How the results depend on the processing

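The 58 nuclear members called between the double KO and the control ranged from 26 to 65 when 1 library was left out, and were 40 without a filter on low values and 57 falling after quantile normalization. Between the double KO and the Taz KO the 27 nuclear members called ranged from 7 to 59 with 1 library left out, and were 80 with the replicate block, 11 with only those 2 groups and 76 with libraries numbered 1 and 3 only. Nuclear members called between the Taz KO and the control were 2 with the replicate block. The 6 mitochondrial members called between the double KO and the control ranged from 3 to 8 with 1 library left out and were 0 without a filter. The 3 called between the double KO and the Taz KO ranged from 1 to 4 and were 0 without a filter, 5 with the replicate block and 7 with libraries numbered 1 and 3 only. Without a filter 24621 genes were tested; the cause of the lost calls was not tested. Outside chromosomes 6, 8, 14 and Y the ratio was 5.29 in the control, 5.99 in the Taz KO and 9.05 in the double KO. The mitochondrial median between the double KO and the control was 0.16 over members above 0 in at least 1 library and 0.22 to 0.38 with 1 library left out. Between the Taz KO and the control it was -0.013 over members above 0, 0.087 without rRNA and tRNA genes, and -0.013 to 0.11 with 1 library left out. With the replicate block 2828 of all genes were higher and 3284 lower between the double KO and the control, against 1443 and 1505 without it; 908 and 473 against 84 and 66 between the Taz KO and the control; and 1963 and 2984 against 750 and 870 between the double KO and the Taz KO. Scaling by total reads turned that last split to 1008 higher and 718 lower. Of 1980 refitted values of named members, 1867 kept their side of the threshold, 81 lost the call and 32 gained it. From a call in 1 direction to a call in the other, 0 turned. These counts do not cover the sign of uncalled values, which can change where the difference is near 0. The least covered member had 43 reads in its shallowest library. Among the genes named for the double KO against the control, the replicate block changed no call other than those given beside their values.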
